A study of Mus musculus with 2 samples.

Results

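The EGF receptor ligands and the ErbB receptors were described here as 9 genes, taken from the count matrices of both libraries by symbol and making up 9 of the 33904 genes listed. They were 6 ligands, Areg (amphiregulin), Ereg (epiregulin), Hbegf (heparin-binding EGF-like growth factor), Tgfa (transforming growth factor alpha), Btc (betacellulin) and Epgn (epigen), and 3 receptors, Egfr, Erbb2 and Erbb3. Single-cell RNA sequencing was performed on dorsal skin of female C57BL/6J mice, for which the labels name no transgene or deletion, aged 7 weeks and depilated 24 h before the first application. The Ctrl library came from skin given ethanol daily for 10 days, and the AD library from skin given MC903 (calcipotriol, a vitamin D analogue used to induce atopic dermatitis-like inflammation) in ethanol at 4.5 nmol per application on the same schedule, both collected on day 10. The number of mice behind each library was not given in the sources used here. With 1 library per group there was no replicate and no test, so each difference compares 2 libraries and not 2 conditions.

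Ligands of this family are made as membrane-anchored precursors, released by metalloproteases such as ADAM17, and bind EGFR on the same or on neighbouring cells. Ligand binding lets EGFR pair with itself or with ERBB2, which has no known ligand of its own, or with ERBB3, which binds neuregulins and signals mainly through its partners. In epidermis the pathway drives keratinocyte proliferation, migration and repair, and amphiregulin is also a product of T cells and other immune cells in damaged tissue.

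The 4 ligand genes Epgn, Ereg, Areg and Btc lie within 375 kb of chromosome 5, between 91027517 and 91402994 on GRCm38.p6 in RefSeq, whereas Tgfa, Egfr, Erbb2 and Erbb3 lie on other chromosomes. The 250 bases before the RefSeq start of Areg (chr5:91139349-91139598, plus strand) and of Epgn (chr5:91027267-91027516, plus strand) are shown because both genes were higher in AD basal keratinocytes and differed in which other cells held them. Capitals mark matches to the cAMP response element TGACGTCA, the GC box GGGCGG and the TATA box TATAAA, searched on both strands.
Areg: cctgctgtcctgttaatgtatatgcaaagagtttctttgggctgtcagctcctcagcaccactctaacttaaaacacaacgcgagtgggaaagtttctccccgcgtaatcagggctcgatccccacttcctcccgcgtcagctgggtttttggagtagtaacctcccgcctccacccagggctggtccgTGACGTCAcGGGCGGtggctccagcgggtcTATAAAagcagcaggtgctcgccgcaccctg
Epgn: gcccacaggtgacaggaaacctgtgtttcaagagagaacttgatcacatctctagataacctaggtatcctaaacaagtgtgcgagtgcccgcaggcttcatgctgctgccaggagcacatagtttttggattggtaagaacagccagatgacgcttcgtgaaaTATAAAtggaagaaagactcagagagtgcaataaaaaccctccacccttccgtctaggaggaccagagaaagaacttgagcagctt
Areg held the cAMP response element 61 to 54 bases, the GC box 52 to 47 bases and the TATA box 31 to 26 bases before its start, and Epgn held the TATA box 86 to 81 bases before its start. Among 32851 promoter windows of this length, 1.55% held the cAMP response element, 32.7% the GC box and 12.4% the TATA box. The AP-1 motif TGANTCA, present in 6.75% of windows, had no match in either sequence. The matches are a description of these letters only.

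After removal of cells outside 200 to 6000 detected genes or above 10% mitochondrial transcripts, 11399 of 12598 Ctrl barcodes and 8179 of 8778 AD barcodes remained, with medians of 7813 and 6330 unique molecular identifiers (UMIs, counted transcripts) per cell. The 2 libraries shared 35 barcode sequences. Each cell was assigned to a class from marker genes that did not include the 9 genes, which placed 91.2% of Ctrl and 78.4% of AD cells. Keratinocytes (KC) numbered 1962 in Ctrl and 386 in AD, dermal fibroblasts (dFB) 6165 and 4361, macrophages and monocytes 502 and 207, and lymphocytes 631 and 424. Markers independent of the gate were enriched in KC, dFB, macrophages and lymphocytes of both libraries, 4 of 4 in each. The classes differed in makeup: AD held 306 basal and 7 suprabasal KC against 869 and 370 in Ctrl, and no cells of the hair matrix class against 169. The summed level of the dFB gate markers was 49578 counts per 1000000 UMIs (CPM) in Ctrl dFB and 12595 in AD dFB, while Pdgfra, one of them, was 476 and 736 CPM. A class set by haemoglobin genes held 19028 CPM of KC markers in Ctrl and 5358 CPM of dFB markers in AD, went against its name, and no value is given for it as a cell type.

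Over all cells kept, the ligands gave 5980 Areg, 4310 Ereg, 7791 Hbegf, 529 Tgfa, 731 Btc and 719 Epgn UMIs in Ctrl, and 1709, 143, 5549, 239, 29 and 613 in AD. The receptors gave 17587 Egfr, 2169 Erbb2 and 2696 Erbb3 UMIs in Ctrl and 21844, 544 and 850 in AD. In Ctrl skin KC were the main source of every ligand, holding between 57.5% of the Areg UMIs and 90.8% of the Ereg UMIs. In AD KC held 93.6% of the Epgn UMIs (95% Clopper-Pearson interval 91.4 to 95.4) and between 17.0% and 46.4% of those of the other 5 ligands. These AD shares depended on the cell filter: with all deposited barcodes KC held 75.0% of the Areg, 64.8% of the Btc, 60.9% of the Tgfa, 50% of the Ereg and 27.0% of the Hbegf UMIs of AD, more than any other gated class for each. Intervals here cover counting error only, and these shares move with the number of cells of each class as well as with their levels.

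**Figure D1:**
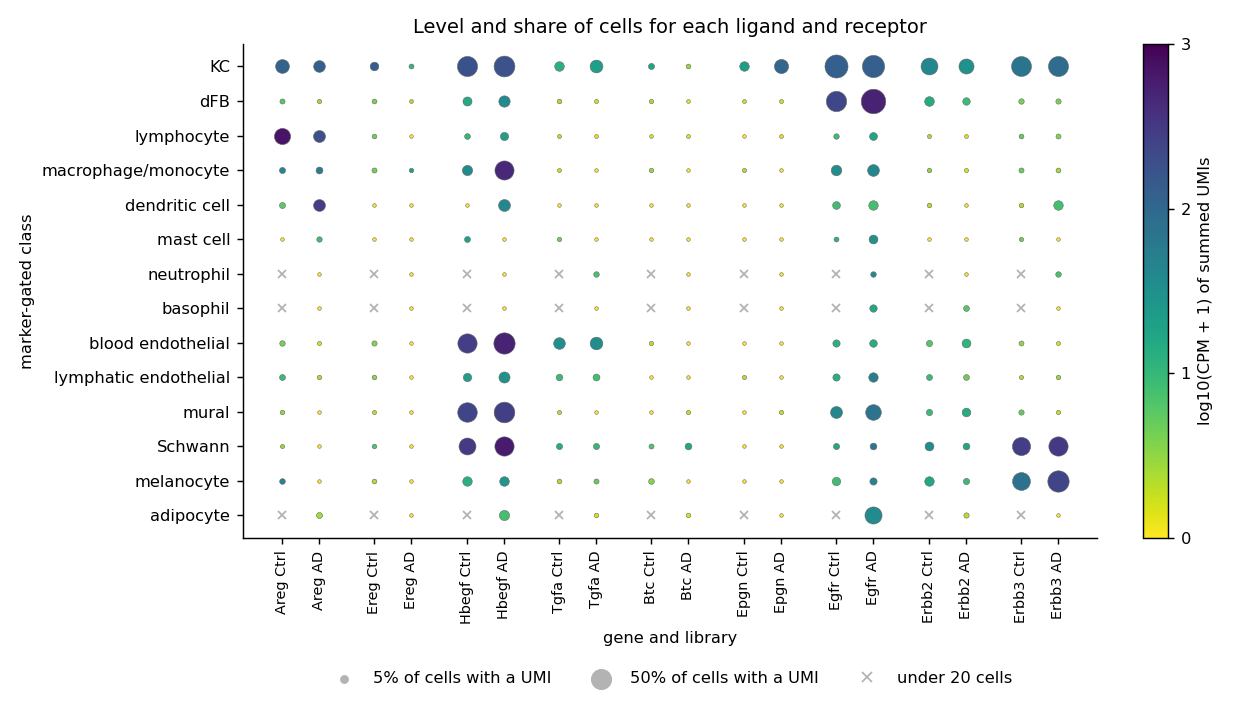
Level of each of the 9 genes by gated cell class and library, with colour for log10(CPM + 1) of summed UMIs, crosses for classes under 20 cells and dot size for the share of cells with at least 1 UMI. Ereg and Btc were concentrated in Ctrl KC, Epgn in KC of both libraries, Areg in KC and lymphocytes, Hbegf in KC, macrophages, endothelial, mural and Schwann cells, Egfr in dFB and KC, and Erbb3 in KC, Schwann cells and melanocytes.

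The KC comparison asked which ligands and receptors differed in epidermal cells after MC903. Across KC, Epgn was 4.98-fold higher in AD, Ereg and Btc were lower, and the other 6 genes differed by less than 2-fold. A gene was read as higher or lower at a 2-fold ratio of CPM if it had at least 20 UMIs over both libraries and at least 10 CPM in either. A gene under 10 CPM in 1 library was thus read only through the other, as were Ereg and Btc in KC. The shares over all genes used the same rule. By this rule all 9 genes could be read in KC, 1 was higher and 2 were lower, where 6.57% of 9224 genes were higher and 12.3% were lower. The median log2 ratio of the 9 was 0.01, beside -0.14 over all genes read in KC.

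Epigen, a low-affinity EGFR ligand, had 642 UMIs in Ctrl KC and 574 in AD KC, which was 21.1 CPM (19.5 to 22.8, exact Poisson interval) and 105 CPM (96.8 to 114). The log2 ratio was 2.32 (2.15 to 2.48, exact counting interval). A UMI of Epgn was present in 10.8% of Ctrl and 26.2% of AD KC, although AD KC were shallower, with a median of 10173.5 against 14605 UMIs. After each cell was thinned to 1000 UMIs the shares were 1.39% and 7.30%. Outside KC Epgn was near absent: dFB, at medians of 8574 and 7175 UMIs, held it in 0.308% of Ctrl and 0.367% of AD cells.

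Epiregulin had 3914 UMIs in Ctrl KC at 129 CPM and 52 UMIs in AD KC at 9.53 CPM, or -3.76 on the log2 AD/Ctrl scale (-4.18 to -3.36). The Ctrl level lay almost wholly in the differentiating layer, since 3851 of those UMIs came from suprabasal KC, of which 35.7% held the transcript. A single AD suprabasal cell held 46 of the 52 AD UMIs, and AD KC without it had 1.11 CPM. Among basal KC the gene had 30 UMIs in Ctrl and 5 in AD, at 2.58 and 1.15 CPM, under the 10 CPM needed to be read. Betacellulin was likewise a gene of few Ctrl cells, with 474 UMIs (15.6 CPM) in Ctrl KC and 11 UMIs (2.02 CPM) in AD KC, which was -2.95 on the log2 AD/Ctrl scale (-3.96 to -2.10). In Ctrl suprabasal KC 3 cells held 77.8% of its 437 UMIs.

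Summed over all KC, Areg was 113 CPM in Ctrl and 126 CPM in AD, Hbegf 179 and 173 CPM, and Tgfa 11.2 and 20.3 CPM. These near-equal sums joined cells of unlike layers. Ctrl suprabasal KC, marked by Krt1 and Krt10, were the KC layer with the most ligand, with 1408 CPM over the 6 ligands against 188 CPM in Ctrl basal KC, and 93.0% of them held at least 1 ligand and 47.3% at least 3. Their Areg stood at 368 CPM (355 to 382) against 20.7 CPM (18.2 to 23.5) in Ctrl basal KC, and their Hbegf at 417 CPM (403 to 432) against 133 CPM (127 to 140). The 7 suprabasal KC of AD held 145 Areg, 46 Ereg, 59 Hbegf and 56 Epgn UMIs and were too few to compare.

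Basal KC, gated on Krt5, Krt14 and Krt15, allowed a comparison within 1 gated subset. Whether this gate held the same mix of cells in both libraries was not tested. In this subset the 6 ligands together were 188 CPM in Ctrl and 403 CPM in AD. Of the 7 genes that could be read, 3 ligands were higher and none of the 7 was lower, where 4.86% of 9212 genes were higher and 11.5% were lower. The median of the 7 was 0.65 on the log2 scale beside -0.20 over all genes read.

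Epgn was 22.3 CPM in basal KC of Ctrl and 104 CPM in those of AD, or 2.22 on the log2 AD/Ctrl scale (1.99 to 2.44), and it was found in 1.63% and 8.45% of cells thinned to 1000 UMIs. The AD level was spread over cells, since 90 AD cells held it and the leading 3 held 16.4% of the UMIs. Transforming growth factor alpha, a classic autocrine ligand of keratinocytes, was 8.52 and 22.3 CPM, or 1.39 on the log2 AD/Ctrl scale (0.97 to 1.81), and was found in 9.32% and 23.2% of basal cells. Its ratio was 0.82 with the stricter gate and 0.80 with 10 CPM added to both libraries, both short of 2-fold, and thinned shares were 0.697% and 1.35%, near the level of 1 UMI.

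Amphiregulin in basal KC had 241 UMIs in Ctrl and 417 in AD, at 20.7 and 96.1 CPM, or 2.21 on the log2 AD/Ctrl scale (1.98 to 2.45). Unlike Epgn, it was held by a similar share of cells, 12.4% in Ctrl and 15.0% in AD, or 1.74% and 2.70% after thinning. In AD 3 cells held 43.9% of its UMIs, and without the leading cell the AD level was 76.7 CPM. With all deposited barcodes it was 238 CPM, against 19.6 CPM in Ctrl, and all KC of AD then had 254 CPM against 98.7 CPM in Ctrl. The higher sum thus came with more UMIs in few cells. Hbegf, which also binds ERBB4, was 133 CPM in Ctrl and 179 CPM in AD basal KC, short of 2-fold.

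**Figure D2:**
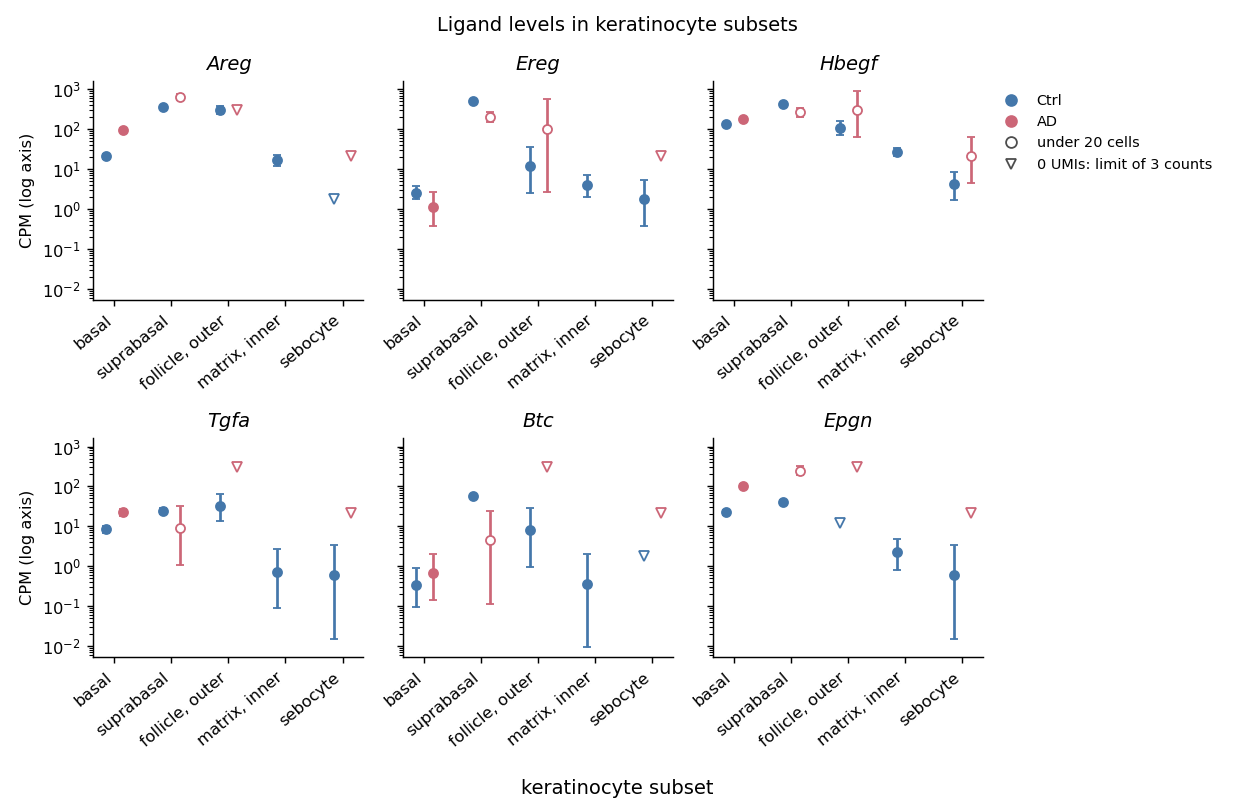
CPM of the 6 ligands in KC subsets of each library on a log axis, with exact 95% Poisson intervals as bars, open circles for under 20 cells and triangles for the limit of 3 UMIs at 0. In basal KC Areg, Epgn and Tgfa were higher in AD (96.1, 104 and 22.3 CPM) than in Ctrl (20.7, 22.3 and 8.52 CPM), and Ctrl suprabasal KC had the highest Ereg at 502 CPM.

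No receptor differed by 2-fold in KC. Egfr was 124 CPM in Ctrl and 125 CPM in AD, Erbb2 40.2 and 28.4 CPM, and Erbb3 70.0 and 88.5 CPM, with log2 ratios of 0.01 (-0.11 to 0.13), -0.50 (-0.75 to -0.26) and 0.34 (0.19 to 0.48). The sign for Egfr turned under other settings, between -0.26 and 0.27. Egfr and its partner receptors were layered in opposite ways in Ctrl, Egfr being 161 CPM (154 to 168) in basal and 63.7 CPM (58.2 to 69.6) in suprabasal KC, while Erbb2 was 28.6 and 64.8 CPM and Erbb3 53.6 and 106 CPM. Egfr and at least 1 ligand were found in the same cell in 48.0% of Ctrl and 49.5% of AD KC. Hair matrix and inner sheath KC of Ctrl held Egfr at 139.8 CPM and Erbb3 at 60.3 CPM, and sebocytes at 70.7 and 28.7 CPM, with few cells or none in AD.

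The dFB comparison asked which members differed in fibroblasts. Egfr was the leading member there and was 2.26-fold higher in AD, and Hbegf was higher from a low level. Only Hbegf, Egfr and Erbb2 of the 9 reached the level at which a gene was read, and 2 of the 3 were higher and 0 lower, where 7.06% of 9198 genes were higher and 14.3% were lower. Areg, Ereg, Tgfa, Btc, Epgn and Erbb3 were each at 5.38 CPM or less in dFB of both libraries.

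Egfr had 13121 UMIs in Ctrl dFB at 228 CPM (224 to 231) and 18174 in AD dFB at 515 CPM (508 to 523), or 1.18 on the log2 AD/Ctrl scale (1.15 to 1.21). A UMI was present in 55.8% of Ctrl and 82.1% of AD dFB, and after thinning in 18.0% and 37.1%. Lymphocytes held a UMI in 2.38% of Ctrl and 6.84% of AD cells at medians of 3133 and 5683.5 UMIs, and in 1.18% of AD cells after thinning. The dFB shares were far above these, and whether lymphocytes themselves express the receptor was not tested. Relative to the median of all genes read in dFB, which was -0.10, the ratio was 1.28. AD dFB held 83.2% of all Egfr UMIs of their library.

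The Egfr level also differed between fibroblast subsets. Dpp4/Pi16 dFB, the adventitial type, had the highest Ctrl level at 419 CPM (411 to 427) and stood at 749 CPM (726 to 772) in AD, short of 2-fold. Fmo2/F3/Gdf10 dFB stood at 376 CPM in Ctrl, from 74 cells, and 553 CPM in AD. The Grem1/Cyp26b1 dFB, a reticular preadipocyte-like type, had 106 CPM (97.0 to 115) in Ctrl and 385 CPM (373 to 397) in AD, or 1.87 on the log2 AD/Ctrl scale (1.74 to 2.00).

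Prdm1/Trps1 dFB had 46.1 CPM (40.0 to 52.9) in Ctrl and 96.8 CPM (82.7 to 112) in AD. These were the lowest levels of the named subsets that AD held in number. For dFB high in both marker genes of this lowest subset the paper uses the name peri-follicular. Follicle sheath and papilla dFB of Ctrl had 45.2 CPM. The dFB without a subset had 105 CPM in Ctrl and 577 CPM in AD. Subset makeup also shifted, with Dpp4/Pi16 dFB numbering 2332 in Ctrl and 719 in AD and Fmo2/F3/Gdf10 dFB 74 and 797, but each of the 4 named subsets with at least 20 cells in both libraries had the higher value in AD. Dermal fibroblast gate markers other than Pdgfra moved the other way, Col1a1 from 11579 to 841 CPM, and the part of that shift in the Egfr ratio, which is relative to all UMIs of the class, was not tested.

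**Figure D3:**
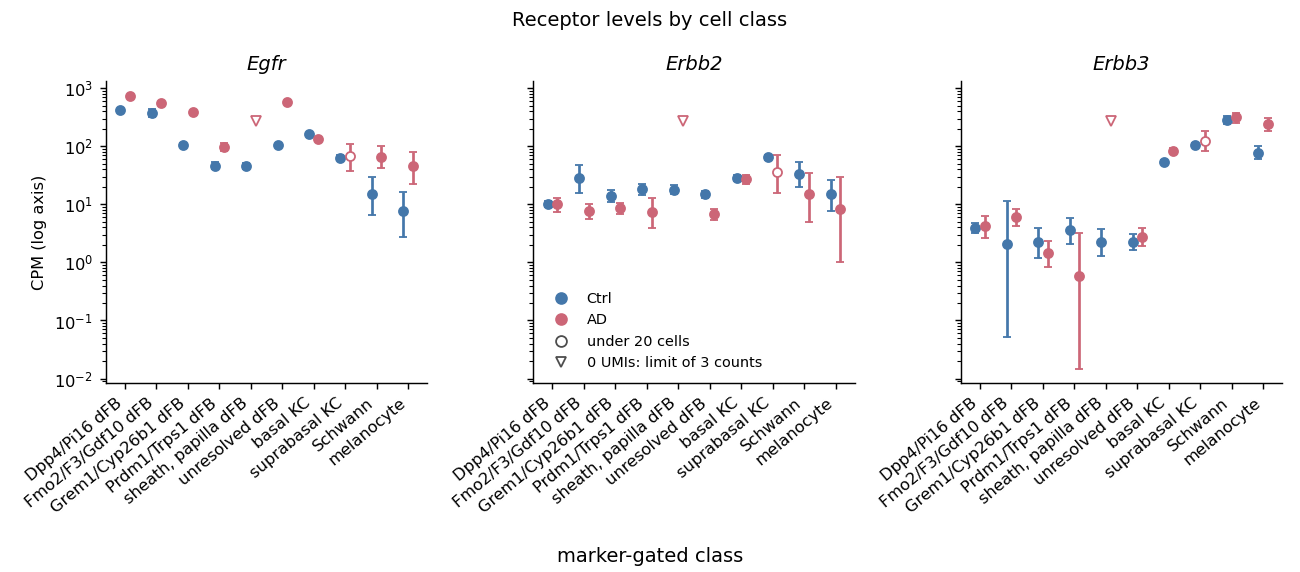
CPM of Egfr, Erbb2 and Erbb3 in cell classes and dFB subsets of each library, with exact 95% Poisson intervals as bars on a log axis, open circles for under 20 cells and triangles for the limit of 3 UMIs at 0. Over all dFB Egfr was 228 CPM in Ctrl and 515 CPM in AD and was higher in AD in each named dFB subset with at least 20 cells in both, while Erbb3 was highest in Schwann cells at 282 and 314 CPM.

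Hbegf in dFB was 14.6 CPM (13.7 to 15.6) in Ctrl and 36.8 CPM (34.8 to 38.8) in AD, or 1.33 on the log2 AD/Ctrl scale (1.20 to 1.46), found in 9.55% and 15.98% of cells. It was highest in the Fmo2/F3/Gdf10 dFB of AD at 60.5 CPM, and its ratio was largest in the Dpp4/Pi16 dFB at 1.82. With 10 CPM added to both libraries the dFB ratio was 0.93 and no longer reached 2-fold. Erbb2, the shared partner receptor, was 13.5 CPM in Ctrl dFB and 7.94 CPM in AD dFB, or -0.77 on the log2 AD/Ctrl scale (-0.97 to -0.57).

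Among immune cells, Hbegf in macrophages and Areg in lymphocytes were the members that stood out. In macrophages and monocytes 4 members could be read, 2 of them were higher and 0 lower, where 6.60% of 8394 genes were higher and 9.66% were lower. Of the 2, Ereg was under 10 CPM in Ctrl and was read through AD only. Hbegf, a ligand that macrophages are known to release, had 90 UMIs in Ctrl at 35.0 CPM (28.1 to 43.0) and 841 in AD at 453 CPM (423 to 485), or 3.70 on the log2 AD/Ctrl scale (3.38 to 4.03). It was found in 12.7% of Ctrl and 49.3% of AD macrophages, and in 3.07% and 25.9% after thinning. No single cell made this value, since the leading AD cell held 6.18% of the UMIs.

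Lymphocytes held Hbegf in 0.797% of Ctrl and 1.65% of AD cells after thinning, below the macrophage shares. The part of free RNA in the macrophage values was not tested. Macrophage gate markers summed to 10398 CPM in Ctrl macrophages and 7317 CPM in AD macrophages. Ereg also passed 2-fold in macrophages, from 9 UMIs in Ctrl (3.50 CPM) to 34 in AD (18.3 CPM), but 33 of the 34 AD UMIs came from 1 cell and the level without it was 0.545 CPM. Areg was 39.3 and 53.3 CPM, held by 10 AD cells, and Egfr 34.2 and 39.9 CPM, both short of 2-fold.

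Hbegf was also a ligand of vessels and nerve. Blood endothelial cells had 283 CPM (259 to 308) in Ctrl and 519.6 CPM (490 to 551) in AD, Schwann cells 297 CPM (252 to 347) and 608 CPM (527 to 698), and mural cells 243 CPM (213 to 276) and 275 CPM (246 to 306). The Schwann ratio just passed 2-fold at 1.03 on the log2 scale, the blood endothelial one did not, and the mural intervals overlapped. Blood endothelial levels by cluster were higher, 527 CPM in Ctrl against 799 CPM in AD. Among cells within the filter, the sources of Hbegf differed between libraries, KC giving 69.9% of its UMIs in Ctrl and 17.0% in AD, where dFB gave 23.4%, blood endothelial cells 20.2% and macrophages 15.2%. With all deposited barcodes KC led in AD too, at 27.0% against 20.7% for dFB. Only 34.9% of Ctrl and 45.2% of AD cells gated as blood endothelial fell in clusters of the same name. Tgfa in blood endothelial cells was 32.2 CPM in Ctrl and 33.4 CPM in AD, and those cells gave 30.1% of its AD UMIs, but this vessel type depended on the gate. By cluster, blood endothelial cells had 11.4 and 15.7 CPM of Tgfa and 8.37% of its AD UMIs, and lymphatic endothelial cells 28.2 and 22.8 CPM and 27.2%.

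**Figure D4:**
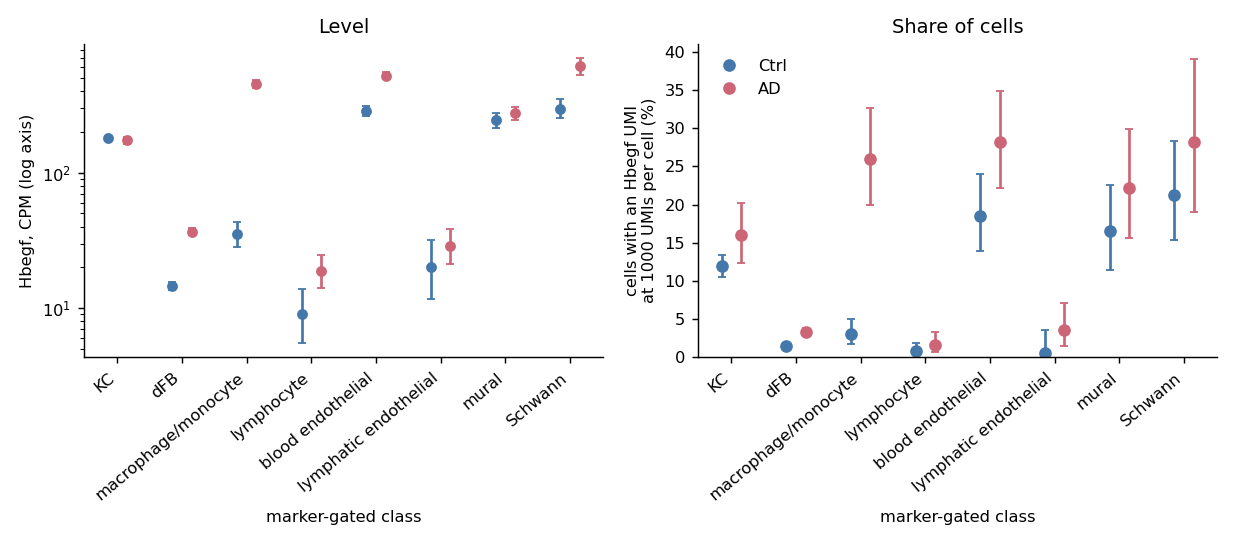
Hbegf by cell class and library as CPM on a log axis (left, exact 95% Poisson intervals) and as the share of cells with a UMI after thinning to 1000 UMIs (right, Clopper-Pearson intervals). Macrophages stood at 35.0 CPM in Ctrl against 453 CPM in AD, while KC stood at 179 and 173 CPM.

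Lymphocytes held Areg at the highest level of any class in Ctrl and at a lower level in AD. There were 1527 UMIs in Ctrl, 689.8 CPM (656 to 725), and 532 in AD, 186 CPM (171 to 203), or -1.89 on the log2 AD/Ctrl scale (-2.03 to -1.75). A UMI was present in 34.9% of Ctrl and 18.2% of AD lymphocytes, although the AD cells were deeper, and after thinning in 22.5% and 8.25%. Subset makeup also shifted. Gamma-delta T cells, the subset highest in Areg, gave 673680 of 2213791 lymphocyte UMIs in Ctrl and 330997 of 2855473 in AD. The part of that shift in the lymphocyte ratio was not tested. Of 3 members that could be read in lymphocytes 1 was lower and 2 were higher, where 9.12% of 8392 genes were lower and 3.18% were higher. The higher pair, Hbegf at 9.03 and 18.9 CPM and Egfr at 7.68 and 16.5 CPM, were found after thinning in 0.797% and 1.65%, and in 0.957% and 1.18%, of the cells, near the level of 1 UMI. Hbegf and Egfr were also higher in AD dFB, and the part of free RNA in the lymphocyte values was not tested.

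Regulatory T cells, gated on Foxp3, Ctla4 and Il2ra, held Areg in 61.5% of 161 Ctrl cells and in 29.3% of 75 AD cells, or 37.1% and 16% after thinning. Their level was 622 CPM (555 to 695) in Ctrl and 165 CPM (132 to 204) in AD, or -1.92 on the log2 AD/Ctrl scale (-2.28 to -1.57), and it did not rest on a single cell. Gamma-delta T cells had the highest Areg of any lymphocyte, 1575 CPM (1482 to 1673) in 189 Ctrl cells and 873 CPM (775 to 980) in 83 AD cells, short of 2-fold at -0.85. A single AD cell held 151 of their 289 UMIs, and the AD level without it was 422 CPM.

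They fell in 2 clusters, which differed in Il17a. The Il17a-free cluster, with Trdc and Cd3e at high levels, had Areg at 2914 CPM in 74 Ctrl cells and 1460 CPM in 24 AD cells, with shares of 56.8% and 62.5%. In the cluster with Il17a at 1510 and 1995 CPM, Areg was 683 CPM in 113 Ctrl cells and 677 CPM in 59 AD cells, and 524 and 69.7 CPM without the leading cell of each. Alpha-beta T cells were low, 50.2 CPM in the Ctrl library and 28.02 CPM in AD, short of 2-fold at -0.84 (-1.57 to -0.11). In Ctrl 1 cell held 16 of the 35 UMIs. Without the leading cell of each library the levels were 27.4 and 23.1 CPM.

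**Figure D5:**
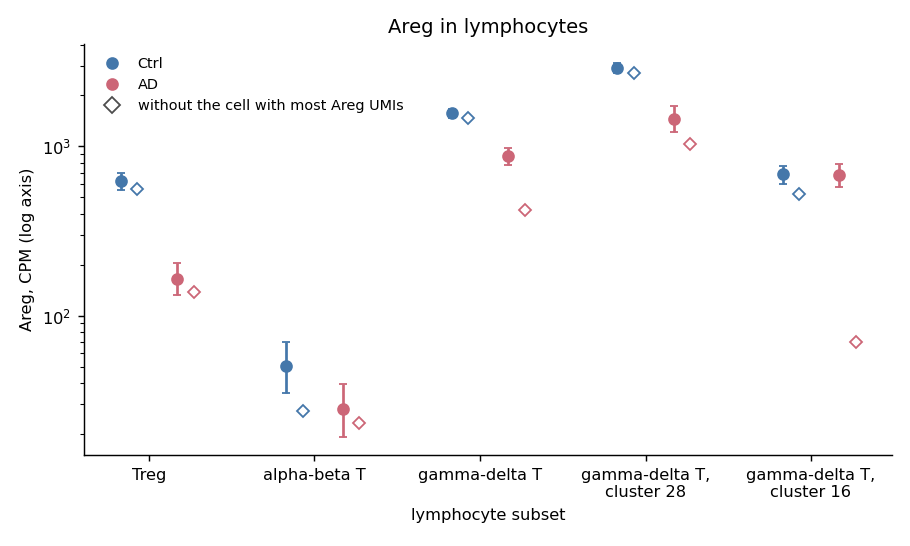
CPM of Areg in lymphocyte subsets and in the gamma-delta T clusters 28 (free of Il17a) and 16 by library on a log axis, with exact 95% Poisson intervals as bars and diamonds for the level without the leading cell. Regulatory T cells had 622 CPM in Ctrl against 165 CPM in AD, and gamma-delta T cells at 1575 and 873 CPM, the latter 422 CPM without a single AD cell.

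Dendritic cells had 4 Areg UMIs in 92 Ctrl cells and 125 in 28 AD cells, 4.90 and 284 CPM, but 73 of the AD UMIs came from 1 cell and only 5 cells held any. Only 17.4% of Ctrl against 78.6% of AD cells gated as dendritic fell in clusters of the same name. Their macrophage gate markers summed to 1716 and 132 CPM. Whether this gate held the same mix of cells in both libraries was not tested. Mast cells, basophils and neutrophils, with 44, 34 and 41 AD cells, had 1, 0 and 0 Areg UMIs in AD. Immune cells together gave 27.3% of the Areg UMIs in Ctrl and 44.3% in AD, while KC gave 57.5% and 40.1%. This order of the immune shares held only within the cell filter, since with all deposited barcodes immune cells gave 24.6% in Ctrl and 18.2% in AD, and KC 59.5% and 75.0%.

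Receptor-bearing cells outside KC and dFB were mainly Schwann cells and melanocytes for Erbb3, which both derive from the neural crest and depend on neuregulin signalling. Schwann cells held Erbb3 at 282 CPM (238 to 330) without and 314 CPM (257 to 381) with MC903, intervals that overlapped, and 44.6% and 50% of the cells held it. Melanocytes held it at 78.0 CPM (59.8 to 99.9) in 75 Ctrl cells and 239 CPM (182 to 309) in 55 AD cells, or 1.62 on the log2 AD/Ctrl scale (1.08 to 2.16), with thinned shares of 4.11% and 31.5%. KC gate markers in these melanocytes were 665 CPM in Ctrl and 421 CPM in AD.

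Egfr was low in the gated classes outside KC and dFB, the class set by haemoglobin genes aside. The ungated cells of AD held 2455 Egfr UMIs at 325 CPM, or 11.2% of the Egfr UMIs of AD. Mural cells had 39.8 CPM in Ctrl and 71.0 CPM in AD, and adipocytes, of which AD held 95 and Ctrl 1, had 36.5 CPM in AD. Lymphatic endothelial cells had 11.8 CPM (10 UMIs) in Ctrl and 53.0 CPM (84 UMIs) in AD, and Schwann cells 15.0 CPM (8 UMIs) and 66.5 CPM (22 UMIs). In both classes Pdgfra, a dFB marker, moved in the same direction, from 14.1 to 63.7 CPM and from 18.8 to 63.5 CPM. The summed dFB gate markers moved the other way, from 1063 to 744 CPM and from 2564 to 1889 CPM. The part of fibroblast transcripts in these Egfr values was not tested.

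Other genes of the pathway were read from a list of 40 in 4 groups. In KC 34 could be read, 7 were higher in AD and 1 was lower, where 6.57% of 9224 genes were higher and 12.3% were lower. Their median log2 ratio was 0.35 beside -0.14 over all genes. In dFB 32 could be read, 7 were higher and 1 lower, where 7.06% of 9198 genes were higher and 14.3% were lower. The median in dFB was 0.40 beside -0.10. Of other ErbB ligands and the receptor Erbb4, only the neuregulin Nrg1, a ligand of ERBB3, could be read in KC, with 9.02 CPM in Ctrl against 94.2 CPM in AD (log2 ratio 3.39), and none in dFB. Nrg1 was under 10 CPM in Ctrl and was read through AD only. The gene list held another identifier under the symbol Nrg1, which was not counted here.

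Of the 6 genes of ligand shedding, Timp3, an inhibitor of metalloproteases, was lower in both classes, from 375 to 56.6 CPM in KC and from 754 to 339 CPM in dFB. The shedding protease Adam17 was 49.9 and 36.3 CPM in KC, and in dFB Adam9 was 59.5 and 143 CPM (log2 ratio 1.27), the only higher gene of this group. Rhbdf2, which carries ADAM17 to the surface, was 48.1 and 52.2 CPM in KC and 13.3 and 9.61 CPM in dFB. Adam9 in KC (20.1 and 27.1 CPM) and Rhbdf1 in dFB (43.8 and 37.3 CPM) were short of 2-fold.

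Of 13 receptor adaptors and inhibitors, 12 could be read in each class and Errfi1, an inhibitor of EGFR kinase induced by its signalling, was the only one higher, from 149.6 to 474 CPM in KC (1.66) and from 876 to 1856 CPM in dFB (1.08). The adaptor Shc1 followed in KC (25.5 and 41.1 CPM) and the exchange factor Sos2 in dFB (47.2 and 75.3 CPM). The lowest ratios in KC were those of Ptpn11 (-0.27) and Gab1 (-0.27) and in dFB those of Grb2 (-0.09) and Cbl (-0.06), all short of 2-fold.

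Among all genes read, 6.57% were higher in KC and 7.06% in dFB, and 12.3% and 14.3% were lower. Of 15 genes of ERK feedback and response, 5 of 15 were higher in KC and 5 of 14 in dFB, and none was lower. In KC these were Ier3 (308 and 1401 CPM), Phlda1 (146 and 634 CPM), Dusp4 (1.53 on the log2 scale), Myc (72.1 and 168 CPM) and Fosl1 (1.11). In dFB they were Myc (101 and 659 CPM), Ier3 (276 and 1042 CPM), Fosl1 (1.85), Spry4 (1.38) and Etv5 (1.20). The lowest ratios were those of Spry1 (-0.71) and Dusp5 (51.1 CPM in both libraries) in KC, and of Spry1 (0.15) and Phlda1 (0.27) in dFB. Many other signals induce these genes, and no part of EGFR in their levels was tested.

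Over 27 class sums, the genes whose log2(CPM + 10) followed each member most closely by Pearson's r were Rasgrp1, Kdm2b and Tnfrsf18 for Areg (0.84, 0.82 and 0.80), Krt16, Cdcp1 and Mir205hg for Epgn (0.98, 0.95 and 0.94) and Smoc2, Vegfd and Il1rl2 for Egfr (0.92, 0.88 and 0.87). Ereg was followed by Them5, Klk5 and Cnfn (0.96 each), which were highest in the Ctrl class set by haemoglobin genes, where 1 cell held 51 Ereg UMIs. For Hbegf they were Pdgfa, Tcim and Cltb (0.76, 0.75 and 0.75), for Tgfa Itgb4, Shroom4 and Ptpn14 (0.81, 0.80 and 0.79), and for Btc Fa2h, Sostdc1 and Pou3f1 (0.87, 0.80 and 0.80). Erbb2 was followed by Samd5, Adgrl3 and Ephb6 (0.87, 0.85 and 0.83), and Erbb3 by Acot1, Tfap2b and Ldhb (0.90, 0.89 and 0.88). The 27 sums include the class set by haemoglobin genes. Over the 25 without it, the leading gene of each member was the same (0.81 to 0.99), but at least 1 of the others changed for every member except Btc, with Cenpa in place of Tnfrsf18 for Areg, Klk10 and Tnk1 in place of Cdcp1 and Mir205hg for Epgn, and Has2 in place of Il1rl2 for Egfr. The class sums share libraries and depth, and these values are a description.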

How the data were processed

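The authors deposited filtered 10x Genomics gene-by-cell matrices of raw UMI counts, not normalised, from Chromium 3' v3.1 libraries. Per the labels these were made with Cell Ranger 3.1.0 on mm10 and analysed in Seurat 5.0, while the header of the deposited count matrices names Cell Ranger 5.0.0. The deposited libraries held 125184653 UMIs in Ctrl and 76106062 in AD. The 3' counts mark transcript ends, so levels do not scale with transcript length. Genes can differ in capture, which was not corrected where ligands were summed or levels of different genes were set side by side.

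Cells were kept at 200 to 6000 genes and at most 10% UMIs of 13 mitochondrial genes. Each cell was gated to a class when the next lineage scored at most 0.75 of its leading marker score (0.5 in the stricter gate) and at least 3 markers were detected, and to a subset from at least 2. Gated cells within 0.1 of the margin numbered 272 in Ctrl and 225 in AD, and 93.5% and 95.2% of gated cells had the same class by Leiden cluster (resolution 1, 9 genes and pathway list left out). UMIs were summed per class and library and divided by the class total (CPM). Intervals at 95% were exact Poisson (CPM), Clopper-Pearson (shares) and exact conditional (log2 ratio), and cover counting error only, not the concentration of UMIs in few cells. A gene at 0 UMIs was set at 3 UMIs for a bound. No count model, replicate test or p-value was used, because each group held 1 library. Scrublet called 395 Ctrl cells (3.47%) and 0 AD cells as doublets, so its AD threshold had not worked. No cell was removed as a doublet in the values given, and the 6% of cells with the highest doublet scores were left out as an alternative chosen after seeing the data. The members, marker and pathway lists and the rules were chosen with earlier results of these data known.

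Named pathway genes were the 2 highest and 2 lowest ratios of each group in KC and in dFB and any other past 2-fold. Alternatives were all deposited barcodes, Leiden clusters, a stricter margin, doublet removal, the mean per-cell CPM, centred ratios, 10 CPM added, at least 500 genes and 1000 UMIs per cell and no filter on low counts. Scripts were tested on simulated data. Promoter windows came from RefSeq (GRCm38.p6), where 6 of 9 genes matched. Python 3.11.15, NumPy 2.4.6, pandas 2.3.3, SciPy 1.17.1, Scanpy 1.11.5 and leidenalg 0.10.2 were used.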

Additional observations from a re-analysis of the deposited data

Results flagged for a closer look

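Areg and Ereg passed 2-fold with opposite signs in different cell classes under the same contrast, and these differences between classes were not tested. For Areg the AD/Ctrl log2 value was 2.21 in basal KC and 5.86 in dendritic cells, against -1.89 in lymphocytes, -1.92 in regulatory T cells and -3.02 in Grem1/Cyp26b1 dFB. In melanocytes it was at most -1.79, a bound set by 3 UMIs, since AD held 0 UMIs and 30 of the 34 Ctrl UMIs came from 1 cell. The value of dendritic cells rested on 5 AD cells, and that of Grem1/Cyp26b1 dFB on 55 Ctrl and 14 AD UMIs, of which 28 Ctrl UMIs came from 1 cell. Of cells gated as dendritic, 17.4% in Ctrl and 78.6% in AD fell in clusters of that name, so the gate may hold unlike cells. For Ereg the log2 ratio was -3.76 in KC and 2.39 in macrophages, the latter from 33 UMIs of a single AD cell. In KC 3851 of the 3914 Ctrl UMIs came from suprabasal KC, of which AD held 7. A single AD cell held 46 of the 52 AD UMIs. The KC value thus does not show a direction within 1 layer.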

How the results depend on the processing

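Of the recomputed counts, 59 stayed within 1.5 times the value given and 5 moved. These include counts of how often the leading class of a gene stayed the same. With all deposited barcodes, 5 genes in KC passed 2-fold (3 higher, 2 lower) instead of 3, Areg (1.37) and Tgfa (1.10) joining. In dFB 1 gene passed with 10 CPM added and 6 with no filter on low counts (2 higher, 4 lower), instead of 2. In macrophages 1 gene passed by mean per-cell CPM, and 4 with no filter (2 higher, 2 lower), instead of 2. Of the recomputed log2 ratios, 204 stayed within the counting interval of the value given and 56 moved outside it. Those that moved included 6 of 10 for Hbegf in dFB and 5 of 10 for Egfr in dFB, while 0 of 10 moved for Erbb3 in KC. Over its alternatives the log2 ratio ranged from 1.89 to 2.61 for Epgn in KC, from 1.08 to 1.30 for Egfr in dFB, from 3.22 to 4.09 for Hbegf in macrophages, from -1.97 to -1.39 for Areg in lymphocytes, from 1.37 to 3.61 for Areg in basal KC and from -1.79 to -0.66 for Areg in gamma-delta T cells. Areg in KC ranged from -0.28 to 1.37 and Hbegf from -0.11 to 0.28, so neither has a direction there. The AD source shares of KC were larger with all deposited barcodes, and the cause was not tested. No paired analysis was possible because each group held 1 library. That also means that the spread between mice is unknown, and that AD values in suprabasal KC (7 cells), dendritic cells (28 cells) and neutrophils (41 cells) are limited by cell number.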
